A study of Mus musculus with 6 samples.

Results

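The mitochondrial ribosomal protein genes, whose symbols begin with Mrpl or Mrps, were measured in 3 kinds of cultured mouse cells. Members were all non-control array probes whose accession or older symbol named such a gene, which gave 66 genes (41 Mrpl and 25 Mrps) on 84 probes, out of 35795 genes tested, 12119 of them with a symbol. The RefSeq gene table lists 78 Mrp genes, and the 12 without a named probe (Mrpl14, Mrpl15, Mrpl17, Mrpl22, Mrpl36, Mrpl41, Mrpl44, Mrpl48, Mrps10, Mrps18b, Mrps18c and Mrps26) were not analysed here.

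Mitochondria hold their own ribosomes, which translate the few proteins encoded by mitochondrial DNA, all of them subunits of the respiratory chain and ATP synthase. The RNA of these ribosomes comes from mitochondrial DNA, whereas every protein of them is encoded in the nucleus, made in the cytosol and imported. Some of the proteins descend from bacterial ribosomal proteins and others are found only in mitochondria. The names give the subunit, Mrpl for large and Mrps for small, with exceptions: Mrps18a and Mrps30 sit in the large subunit, and Mrps36 has since been placed in a dehydrogenase complex of the citric acid cycle.

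The cells were neurospheres (NS), embryonic stem cells (ESC) and bone marrow derived multipotent adult progenitor cells (MAPC), with 2 arrays for each. MAPC were grown at low oxygen (5%) in 2% serum with EGF, PDGF-BB and LIF, were depleted of CD45+ and Ter119+ cells, and had passed more than 80 population doublings. The labels describe both MAPC arrays as the same clone (clone 2, high Oct4) and give no strain for it. ESC were C57BL/6 cells kept with LIF and 15% serum on irradiated embryonic fibroblasts and plated without these feeders before collection. NS were C57BL/6 neuroepithelial cells of E11.5 forebrain, expanded as free-floating spheres with bFGF and EGF. No genotype other than the strain is given. Cell type and medium cannot be told apart in any comparison, nor strain in the comparisons with MAPC. The series text calls the samples of a kind biological replicates. The p-values rest on the spread between samples of a kind, pooled over the groups. The MAPC samples are of 1 clone, so no p-value measures the spread between MAPC clones.

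On every array the sample carried Cy3 and was set against a Cy5-labelled reference pooled from 11 mouse cell lines, with no dye swap. A value is therefore the log2 ratio of sample to reference, where 1 unit is a doubling, and differences between groups are differences of these ratios. All 84 Mrp probes were marked well above background on all 6 arrays and none was saturated. The median absolute gap between the arrays of a group over Mrp genes was 0.05 in MAPC, 0.07 in ESC and 0.03 in NS. Markers mostly followed the labels. All 8 ESC markers were lower in MAPC than in ESC, and all 7 measured NS markers were lower in MAPC than in NS. All 6 MAPC markers were higher in MAPC than in NS. In MAPC minus ESC 5 of them were higher. The other, Pou5f1 (the Oct4 gene, also counted as an ESC marker), was lower (-2.02 ± 0.17, adjusted p = 5.19e-05 in limma). Sox2, which served as a marker of both ESC and NS, did not pass the test between them. Of 7 measured fibroblast markers, 6 were higher in ESC than in MAPC (all but Thy1) and 6 were higher in ESC than in NS (all but Fbln2), with a summed Cy3 intensity of 16350 to 18370 in ESC, 7627 to 8631 in NS and 981 to 1083 in MAPC. Of 3 measured leukocyte markers, Lyz2 was higher in ESC, with ratios of 0.82 and 0.98 against -2.25 to -1.90 in the other groups. Cd52 was called higher in ESC as well (-0.40 for MAPC minus ESC and 0.35 for ESC minus NS). Ptprc, the CD45 gene, was called in neither (0.29 and -0.17). The part of these markers in the results below was not tested.

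A gene is called here when its Benjamini-Hochberg adjusted p, over all genes tested in limma, was under 0.05. The median Mrp gene was lowest in NS, while single genes differed in order. In ESC minus NS, 47 of 66 Mrp genes were called, 42 higher and 5 lower, where 38.2% of all genes tested and 51.1% of genes with a symbol were called. By direction, 19.8% of all genes tested were called higher and 18.4% lower (29.4% and 21.6% of genes with a symbol). In MAPC minus NS, 49 were called, 37 higher and 12 lower, against 43.8% of all genes tested (21.2% higher and 22.6% lower) and 55.2% of genes with a symbol (28.8% and 26.3%). In MAPC minus ESC the split turned, with 41 called, 13 higher and 28 lower, against 38.1% of all genes tested (16% higher and 22.1% lower) and 50.4% of genes with a symbol (21.1% and 29.3%). These comparisons share arrays and are not independent of each other. Mrp probes were bright, with a median log2 brightness of 11.70 against 8.76 for genes with a symbol. Whether brightness moved the share called was not tested.

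The differences were small. The median Mrp difference was 0.28 in ESC minus NS, 0.26 in MAPC minus NS and -0.08 in MAPC minus ESC, beside medians of 0.01, 0.03 and 0.01 over all genes tested. The -0.08 is close to 0 and took the other sign, 0.02, when the sample channel was analysed without the reference. At least 2-fold differences were called for 5 Mrp genes in ESC minus NS, 5 in MAPC minus NS and 3 in MAPC minus ESC, which was 7.58%, 7.58% and 4.55% of them. The same held for 8.99%, 11.4% and 8.57% of all genes tested. By array, the median Mrp ratio was 0.22 and 0.16 in MAPC, 0.26 and 0.39 in ESC, and 0.02 and 0.02 in NS, so both NS arrays lay below the other 4. Arrays of replicate 1 had their images extracted on a different day from those of replicate 2, per the file headers. Within the replicate 1 day the medians were 0.25, 0.25 and -0.04 in the order given above, and within the replicate 2 day 0.31, 0.20 and -0.11.

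**Figure D1:**
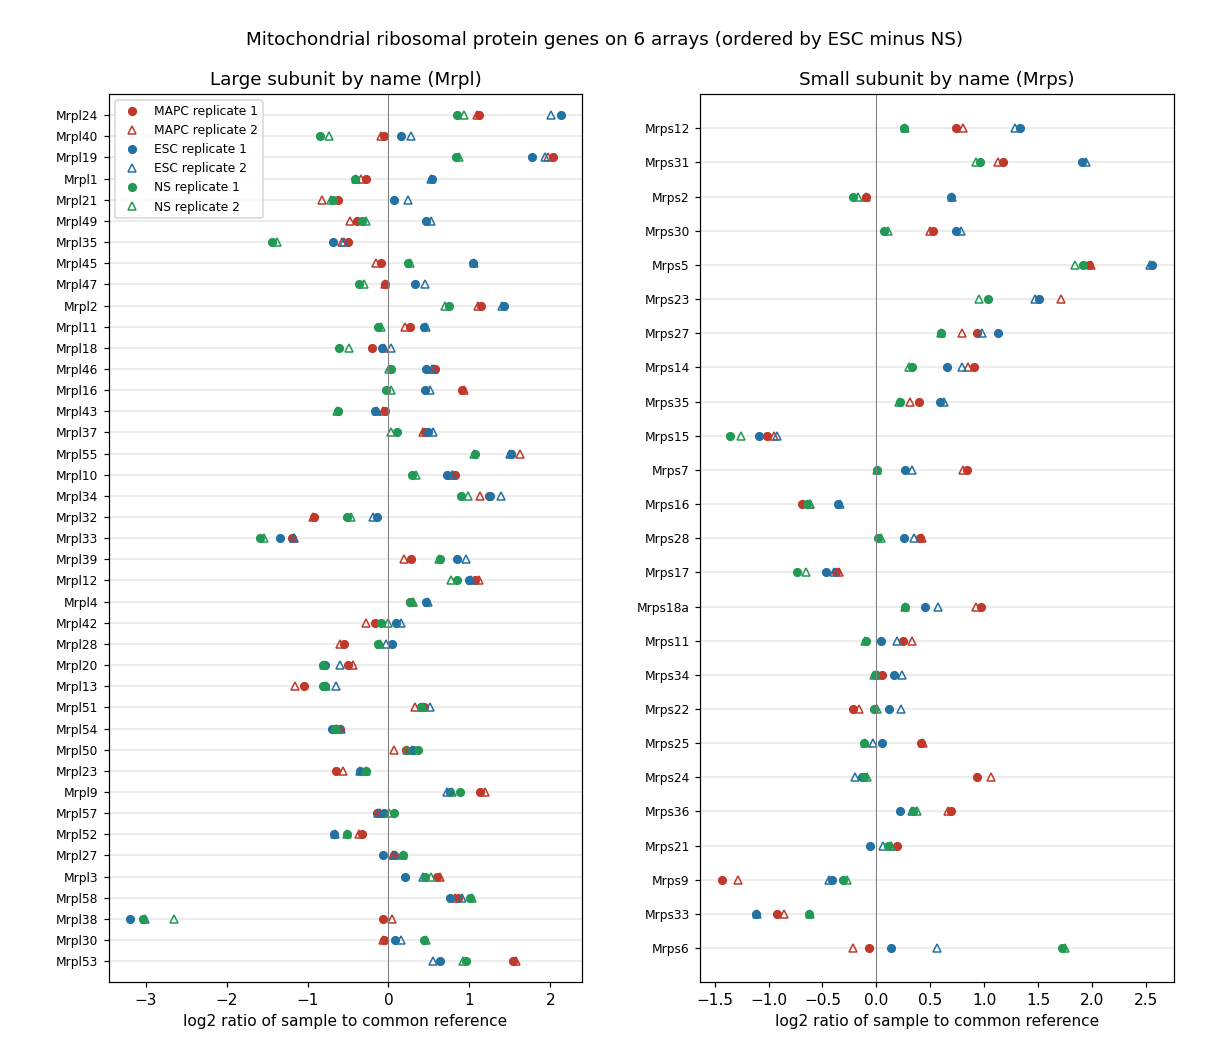
Log2 ratio of sample to common reference (horizontal axis) for the 41 Mrpl and 25 Mrps genes on each of 6 arrays, red for MAPC, blue for ESC and green for NS, with filled circles for replicate 1 and open triangles for replicate 2. The green points lie left of the others for most genes in the upper rows, Mrpl38 shows MAPC near 0 with ESC and NS near -3, and Mrps6 in the lowest row of its panel shows NS near 1.7.

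In both subunits more genes were called higher than lower in the comparisons with NS. Of the 41 Mrpl genes, 24 were called higher and 3 lower in ESC than in NS, 22 higher and 8 lower in MAPC than in NS, and 7 higher and 17 lower in MAPC than in ESC. Of the 25 Mrps genes the counts were 18 and 2, 15 and 4, and 6 and 11. In the same order, 58.5%, 53.7% and 17.1% of Mrpl and 72%, 60% and 24% of Mrps genes were called higher. Of all genes tested 19.8%, 21.2% and 16% were. Called lower were 7.32%, 19.5% and 41.5% of Mrpl and 8%, 16% and 44% of Mrps genes. Of all genes tested 18.4%, 22.6% and 22.1% were. Medians were 0.30, 0.22 and -0.08 for Mrpl and 0.27, 0.32 and 0.02 for Mrps. Moving Mrps18a and Mrps30 to the large subunit, and leaving out Mrps36, gave a small subunit of 22 genes with 16 called higher and 2 lower in ESC than in NS and a median of 0.28. By evolutionary origin, the 37 genes with a bacterial homologue and the 26 specific to mitochondria had medians of 0.29 and 0.25 in ESC minus NS and -0.10 and -0.08 in MAPC minus ESC. In MAPC minus NS the medians were 0.28 and 0.15. Differences between subunits or origins were not tested.

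By pattern, 29 Mrp genes (43.9%) were called lower in NS than in both other groups, a pattern seen in 10.3% of all genes tested and 16.6% of genes with a symbol. They comprised 17 Mrpl and 12 Mrps genes, among them Mrps23, which was measured on 1 MAPC array. The reverse, NS above both, held for 3 (Mrpl30, Mrps6 and Mrps33), against 14.2% of all genes tested and 16.2% of those with a symbol. ESC stood above both other groups for 21 genes (31.8%, against 11% of all genes tested and 16.3% of those with a symbol) and below both for Mrpl52, Mrpl53 and Mrps33 (4.55%, against 4.75% of all genes tested and 6.71% of those with a symbol). MAPC stood above both for 11 genes and below both for 10, 16.7% and 15.2%, against 15.6% and 16.1% of genes with a symbol. Over all genes tested these patterns held for 4110 of 35777 and for 12.8%. All 3 comparisons were called for 20 Mrp genes (30.3%), against 17.7% of all genes tested and 26% of those with a symbol. No comparison was called for Mrpl27, Mrpl50, Mrpl51, Mrpl54, Mrpl58 and Mrps21, 9.09% of Mrp genes. Of all genes tested 44.5% had none called, and of those with a symbol 30.9%. The probe of Mrpl51 was dim, with background-subtracted Cy3 intensities of 37.05 to 66.25, and whether this hid a difference was not tested. Under other processing, Mrpl58 was called in MAPC minus NS (-0.18 in the main fit) in 6 of 14 alternatives. It was called in ESC minus NS in 2, and Mrpl50 in MAPC minus NS in 2.

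Among the large-subunit proteins of bacterial descent, Mrpl24, which lies near the exit of the peptide tunnel in bacteria, was highest in ESC. Its ratios were 2.13 and 2.00 in ESC, 1.12 and 1.10 in MAPC, and 0.85 and 0.93 in NS. The difference ESC minus NS was 1.18 ± 0.06 (SE, adjusted p = 3.59e-06), and MAPC minus ESC was -0.96 ± 0.06 (adjusted p = 1.185e-05). The smaller step from NS to MAPC, 0.22 ± 0.06, was called (adjusted p = 0.025) but was lost without either MAPC array or NS replicate 1 (adjusted p = 0.097, 0.075 and 0.15). It was also lost without background subtraction (0.10, adjusted p = 0.086), with median centring (0.10, adjusted p = 0.28) and with the sample channel by itself (0.47, adjusted p = 0.050). Without background subtraction the larger differences of Mrpl24 shrank to 0.72 and -0.62, both still called.

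Mrpl1, a protein of the bacterial L1 family at the tRNA exit side, and Mrpl21 had the same ESC-high shape. Mrpl1 had ratios of 0.54 and 0.53 in ESC, -0.28 and -0.34 in MAPC, and -0.41 and -0.40 in NS. ESC exceeded NS by 0.94 ± 0.05 (adjusted p = 4.17e-06) and MAPC by 1.80-fold (adjusted p = 7.93e-06), while MAPC and NS differed by 0.09 ± 0.05 (adjusted p = 0.20). Mrpl21 had ratios of 0.07 and 0.24 in ESC against -0.62 and -0.82 in MAPC and -0.68 and -0.71 in NS. MAPC minus ESC was -0.87 ± 0.08 (adjusted p = 9.57e-05). Its dimmer probe, the only one of that gene named through an accession, gave -0.62 for the same comparison, and 0.38 in MAPC minus NS where the brighter probe gave -0.02.

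Mrpl19 and Mrpl35 were low in NS alone, and Mrpl16 rose in steps from NS to ESC to MAPC. Mrpl19 had ratios of 2.03 and 1.97 in MAPC, 1.78 and 1.94 in ESC, and 0.84 and 0.87 in NS. It was 2.21-fold higher in MAPC than in NS (adjusted p = 4.19e-06) and 2.00-fold higher in ESC (adjusted p = 1.16e-05). A second, dim Mrpl19 probe, with background-subtracted intensities of 21.6 to 38.2, showed 0.00 and -0.06 in these comparisons. Mrpl35 had ratios of -0.50 and -0.58 in MAPC, -0.68 and -0.55 in ESC, and -1.44 and -1.38 in NS, a MAPC minus NS difference of 0.87 ± 0.07 (adjusted p = 1.78e-05). Mrpl16, the homologue of a bacterial protein near the tRNA sites, had ratios of 0.90 and 0.94 in MAPC, 0.45 and 0.51 in ESC, and -0.03 and 0.03 in NS. All 3 comparisons of Mrpl16 were called, with MAPC minus NS at 0.92 ± 0.06 (adjusted p = 4.92e-06) and MAPC minus ESC at 0.44 ± 0.06 (adjusted p = 0.00045).

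Mrpl9 was higher in MAPC (1.14 and 1.20) than in ESC (0.76 and 0.72) and NS (0.89 and 0.79), with differences of 0.43 ± 0.06 (adjusted p = 0.00072) and 0.33 ± 0.06 (adjusted p = 0.0024). Mrpl28, Mrpl30 and Mrpl32 were lowest in MAPC. Mrpl32, which is processed on import by the m-AAA protease of the inner membrane, had ratios of -0.92 and -0.93 in MAPC, -0.14 and -0.19 in ESC, and -0.51 and -0.46 in NS. MAPC was 1.70-fold below ESC (adjusted p = 1.66e-05) and 1.36-fold below NS (adjusted p = 0.00027). In the sample channel alone the MAPC minus NS calls of Mrpl32 and Mrpl9 were lost (adjusted p = 0.061 and 0.074), as was the ESC minus NS call of Mrpl32 (0.23, adjusted p = 0.24). For Mrpl28 MAPC minus NS was -0.45 ± 0.05 (adjusted p = 0.00027), from ratios of -0.55 and -0.59 against -0.13 and -0.11, and -0.27 with median centring. Mrpl30 was highest in NS, at 0.44 and 0.46, against 0.08 and 0.15 in ESC and -0.05 and -0.07 in MAPC. Against NS, MAPC was lower by a log2 difference of -0.51 ± 0.05 (adjusted p = 0.00013). Its MAPC minus ESC call (-0.17, adjusted p = 0.038) was lost without ESC replicate 2 (adjusted p = 0.16), without either MAPC array (0.10 and 0.13) and without either NS array (0.066). Mrpl4 lay closest to 0 in MAPC minus NS, at 0.00 ± 0.05, with ratios of 0.27 and 0.30 in each of these groups.

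The stalk of the large subunit, which recruits translation factors, is built from Mrpl12 on a base of Mrpl10 and Mrpl11. All of these were called lower in NS than in both other groups. Mrpl12 had ratios of 1.07 and 1.11 in MAPC, 1.00 and 1.02 in ESC, and 0.84 and 0.78 in NS. Its differences were small, 0.28 ± 0.05 for MAPC minus NS (adjusted p = 0.0033) and 0.20 ± 0.05 for ESC minus NS (adjusted p = 0.019). The ESC minus NS call of Mrpl12 was lost without ESC replicate 1, ESC replicate 2 or NS replicate 2 (adjusted p = 0.051, 0.072 and 0.12), and with the sample channel by itself (adjusted p = 0.12). With median centring the differences of Mrpl12 were 0.51 and 0.38, and MAPC minus NS of Mrpl11 was 0.54. Mrpl10 had 0.83 and 0.80 in MAPC, 0.72 and 0.78 in ESC, and 0.29 and 0.34 in NS, and Mrpl11 had 0.26 and 0.21, 0.44 and 0.47, and -0.13 and -0.10. Mrpl11 was the only one of them called between MAPC and ESC (-0.22 ± 0.05, adjusted p = 0.013), and this was lost without ESC replicate 2 (adjusted p = 0.055) or MAPC replicate 2 (adjusted p = 0.073), with median centring (adjusted p = 0.057) and with the sample channel by itself (adjusted p = 0.29).

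Of the large-subunit proteins specific to mitochondria, Mrpl45 lines the tunnel exit and ties the ribosome to the inner membrane. Its ratios were 1.04 and 1.06 in ESC, 0.24 and 0.27 in NS, and -0.10 and -0.16 in MAPC, and no arrays overlapped between groups. MAPC was 2.26-fold below ESC, the lowest value of any Mrp gene in that comparison (-1.18 ± 0.05, adjusted p = 1.50e-06), and 1.31-fold below NS (adjusted p = 0.00057). Mrpl49 was high in ESC, with ratios of 0.47 and 0.53 against -0.39 and -0.47 in MAPC and -0.32 and -0.28 in NS. MAPC minus ESC was -0.93 ± 0.06 (adjusted p = 8.58e-06) and MAPC minus NS -0.13 ± 0.06 (adjusted p = 0.11). Mrpl39 was likewise highest in ESC (0.85 and 0.96), then NS (0.64 and 0.63), then MAPC (0.27 and 0.19), and was 1.32-fold lower in MAPC than in NS (adjusted p = 0.0011). Its ESC minus NS call (0.28 ± 0.06, adjusted p = 0.0087) was lost without NS replicate 2 (adjusted p = 0.052) and with the sample channel by itself (0.17, adjusted p = 0.33).

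Mrpl40 separated NS from the others. Its ratios were -0.06 and -0.09 in MAPC, 0.15 and 0.28 in ESC, and -0.85 and -0.74 in NS. ESC exceeded NS 2.02-fold (adjusted p = 1.01e-05) and MAPC exceeded NS by 0.72 ± 0.07 (adjusted p = 5.43e-05). The MAPC minus ESC difference of Mrpl40, -0.29 ± 0.07 (adjusted p = 0.0097), was lost without ESC replicate 2 (adjusted p = 0.053) or MAPC replicate 2 (adjusted p = 0.052), and its sign turned when the sample channel was used alone (0.03). Mrpl53 was highest in MAPC, at 1.54 and 1.58 against 0.63 and 0.55 in ESC and 0.96 and 0.93 in NS. It was 1.96-fold higher in MAPC than in ESC (adjusted p = 5.93e-06) and was lower in ESC than in NS (-0.35 ± 0.06, adjusted p = 0.0015). Mrpl52 had a similar order at smaller size, with ratios of -0.33 and -0.37 in MAPC, -0.68 and -0.66 in ESC, and -0.52 and -0.51 in NS. Its ESC minus NS value of -0.15 ± 0.05 (adjusted p = 0.049) lost the call when any of the 6 arrays was left out (adjusted p = 0.065 to 0.16) and was 0.00 with median centring in place of loess. Its MAPC minus NS value of 0.17 (adjusted p = 0.032) was lost without any of the MAPC or NS arrays (adjusted p = 0.065 to 0.14). Mrpl58, a peptidyl-tRNA hydrolase that rescues stalled ribosomes, lay closest to 0 in MAPC minus ESC (0.01 ± 0.06), and Mrpl50 in ESC minus NS (-0.01 ± 0.07).

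Mrpl38, a protein of the large subunit's central protuberance, gave the largest difference of any Mrp gene, and its probes disagreed. It is represented by these 60-base probes, shown because the result turns on which is read, in lower case throughout:
Mrpl38 brighter probe: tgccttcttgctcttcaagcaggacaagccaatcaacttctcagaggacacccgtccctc
Mrpl38 dimmer probe: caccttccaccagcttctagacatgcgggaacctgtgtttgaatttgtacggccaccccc
On the brighter probe the ratios were -0.06 and 0.05 in MAPC, -3.19 and -3.01 in ESC, and -3.04 and -2.65 in NS. The background-subtracted Cy3 intensity was 21480 and 24640 in MAPC, 740 and 835 in ESC, and 676 on both NS arrays. By the ratios to the reference, MAPC was 8.53-fold above ESC (3.09 ± 0.13, adjusted p = 8.80e-07) and 7.14-fold above NS (2.84 ± 0.13, adjusted p = 8.82e-07). In the sample channel alone these log2 differences were larger, at 4.89 and 4.99. With the mean of the probes they were 1.46 and 1.48. The reference was a common pool on every array, and why the sample channel alone gave larger differences than the ratios was not tested. On the dimmer probe the ratios were 1.00 and 0.94 in MAPC, 1.19 and 1.09 in ESC, and 0.86 and 0.83 in NS, and its MAPC minus ESC difference was -0.17 ± 0.06 (adjusted p = 0.057). MAPC minus NS on this probe was 0.12 ± 0.06 (adjusted p = 0.13). Neither probe shared a run of 25 bases with any other probe of the array. The direction of Mrpl38 in MAPC is therefore not settled by these arrays, and the strain of MAPC, which the labels do not give, cannot be told apart from the cell type. With the brighter probe, the ESC minus NS value of -0.26 was not called (adjusted p = 0.17), but it was called without NS replicate 1 (-0.45, adjusted p = 0.015) and in the fit blocked on replicate number (adjusted p = 0.034). Taking the dimmer probe moved the median over Mrp genes to -0.09, 0.23 and 0.29 (MAPC against ESC, MAPC against NS, ESC against NS).

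Across the 18 Mrp genes with 2 probes, the probes of a gene were both called in the same direction for 8 to 10 genes, depending on the comparison, and in limma none were called in opposite directions. Values agreed to within 0.25 for 15 genes in ESC minus NS, 15 in MAPC minus ESC and 14 in MAPC minus NS. Besides Mrpl38 and Mrpl19, Mrpl23 stood apart, with -0.07 on the brighter probe and 0.63 on the dimmer probe in ESC minus NS.

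**Figure D2:**
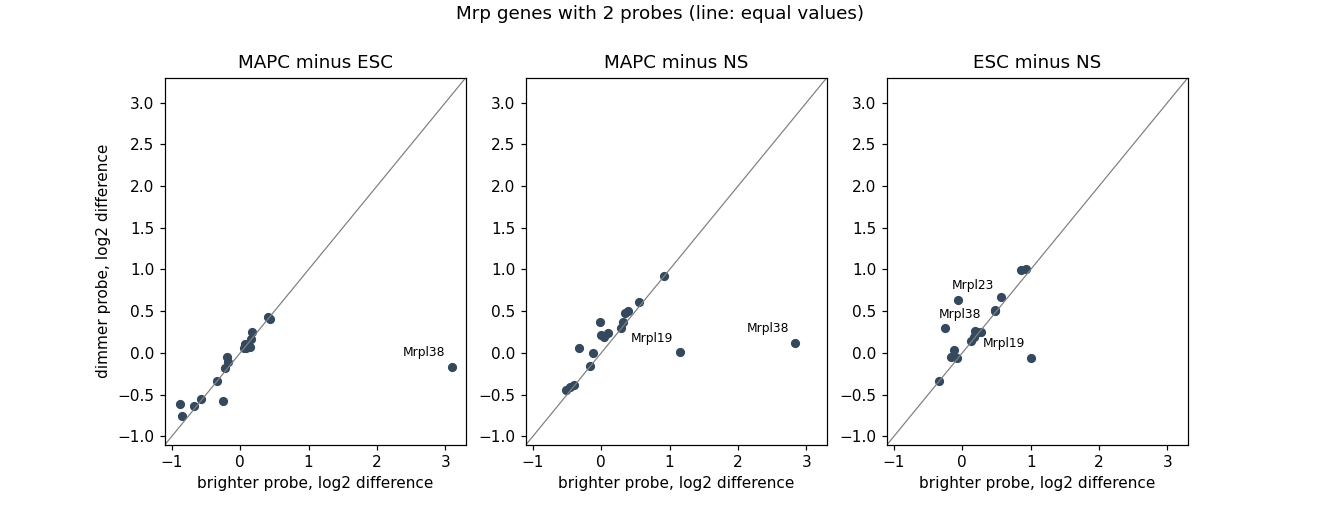
Log2 differences of the 18 Mrp genes with 2 probes, brighter probe on the horizontal and dimmer probe on the vertical axis, in each comparison; the line marks equal values and genes more than 0.4 from it are named. Most genes lie along the line, while Mrpl38 lies at 3.09 against -0.17 in MAPC minus ESC and Mrpl19 at 1.00 against -0.06 in ESC minus NS.

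In the small subunit, Mrps12 and Mrps2 were highest in ESC. Mrps12, the homologue of the bacterial protein at the decoding centre where streptomycin acts, had ratios of 1.33 and 1.28 in ESC, 0.73 and 0.80 in MAPC, and 0.25 and 0.27 in NS. It was 2.07-fold higher in ESC than in NS (adjusted p = 2.77e-06), 1.42-fold higher in MAPC than in NS (adjusted p = 0.00013), and lower in MAPC than in ESC by -0.54 ± 0.05 (adjusted p = 0.00012). Mrps2 had ratios of 0.69 and 0.70 in ESC, -0.10 and -0.10 in MAPC, and -0.21 and -0.17 in NS. MAPC minus ESC was -0.80 ± 0.05 (adjusted p = 9.72e-06), while MAPC and NS differed by 0.09 ± 0.05 (adjusted p = 0.19).

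Mrps5 and the mitochondria-specific Mrps31 shared this ESC-high order. Mrps5 had 2.56 and 2.53 in ESC, 1.97 and 1.99 in MAPC, and 1.91 and 1.84 in NS, with MAPC minus ESC at -0.57 ± 0.05 (adjusted p = 8.89e-05). Mrps31 had 1.90 and 1.94 in ESC, 1.17 and 1.13 in MAPC, and 0.96 and 0.92 in NS. ESC minus NS was 0.98 ± 0.05 (adjusted p = 3.54e-06). Its MAPC minus NS call (0.21, adjusted p = 0.013) was lost without MAPC replicate 1 (adjusted p = 0.073) or NS replicate 2 (adjusted p = 0.081), and with the sample channel by itself (0.12, adjusted p = 0.43). Mrps16 was called in both comparisons with ESC, but in the sample channel alone neither call held (0.05, adjusted p = 0.79, for ESC minus NS and -0.26, adjusted p = 0.10, for MAPC minus ESC). In MAPC minus NS it lay closest to 0, at -0.02 ± 0.05, with ratios of -0.69 and -0.61 in MAPC and -0.65 and -0.61 in NS.

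Mrps24 and Mrps7 were highest in MAPC. Mrps24, the mitochondrial form of the bacterial small-subunit protein S3, had ratios of 0.94 and 1.06 in MAPC, -0.13 and -0.20 in ESC, and -0.12 and -0.09 in NS. It was 2.24-fold higher in MAPC than in ESC (1.16 ± 0.06, adjusted p = 3.70e-06) and 2.15-fold higher than in NS (adjusted p = 3.30e-06), and ESC and NS differed by -0.06 ± 0.06 (adjusted p = 0.53). Mrps7, which organizes the head of the small subunit, had 0.84 and 0.80 in MAPC, 0.27 and 0.33 in ESC, and 0.01 and 0.01 in NS, so that the arrays of each group stood apart. MAPC minus NS was 0.81 ± 0.05 (adjusted p = 7.62e-06) and MAPC minus ESC 0.52 ± 0.05 (adjusted p = 0.00013). Mrps25 had 0.42 and 0.43 in MAPC, 0.05 and -0.03 in ESC, and -0.12 and -0.10 in NS, with MAPC minus ESC at 0.41 ± 0.05 (adjusted p = 0.00055). In the sample channel alone this call was lost (0.15, adjusted p = 0.32), and its MAPC minus NS value of 0.53 (adjusted p = 9.79e-05) turned to -0.01. Without background subtraction the values of Mrps25 were 0.22 and 0.28, both still called. Mrps23 was measured on 1 MAPC array, at 1.71, since its other spot was marked an outlier, and was 1.51 and 1.47 in ESC and 1.04 and 0.95 in NS. Against NS that lone MAPC value differed by 0.72 (adjusted p = 0.00024 in limma), where MAPC is assumed to vary like the other groups. Its ESC minus NS difference of 0.50 was called, but not in the sample channel alone (0.33, adjusted p = 0.32).

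Mrps9 was lowest in MAPC. This homologue of a protein of the bacterial small-subunit head had ratios of -1.43 and -1.29 in MAPC, -0.41 and -0.44 in ESC, and -0.31 and -0.28 in NS. MAPC was 1.91-fold below ESC (adjusted p = 1.40e-05) and 2.09-fold below NS (adjusted p = 4.645e-06). Mrps22 was also lowest in MAPC, at -0.22 and -0.17 against 0.12 and 0.23 in ESC and -0.02 and 0.00 in NS, with MAPC minus ESC at -0.37 ± 0.06 (adjusted p = 0.0018). Its MAPC minus NS call (-0.19, adjusted p = 0.039) was lost without any of the MAPC or NS arrays (adjusted p = 0.072 to 0.16). Mrps15 lay closest to 0 in MAPC minus ESC (0.02 ± 0.07), with ratios of -1.01 and -0.95 in MAPC, -1.08 and -0.92 in ESC, and -1.36 and -1.25 in NS.

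Mrps6 went against the trend and was highest in NS. Its ratios were 1.72 and 1.74 in NS, 0.14 and 0.56 in ESC, and -0.07 and -0.22 in MAPC, and its background-subtracted Cy3 intensity was 5415 and 6273 in NS against 1819 and 2405 in ESC and 1399 and 1084 in MAPC. NS exceeded MAPC 3.67-fold (log2 difference -1.88 ± 0.13 for MAPC minus NS, adjusted p = 9.23e-06) and ESC 2.61-fold (adjusted p = 6.54e-05). The gap between its ESC arrays, 0.42, was the widest of any Mrp gene, and its MAPC minus ESC call (-0.49, adjusted p = 0.017) was lost without MAPC replicate 2 (adjusted p = 0.095), without background subtraction (adjusted p = 0.059) and with the deposited processed intensities (adjusted p = 0.055), and was -0.28 without ESC replicate 2. In the RefSeq table (GRCm38.p6) Mrps6 spans chr16:92058336-92112227 and overlaps Slc5a3, the gene of a myo-inositol transporter, at chr16:92058322-92087473, with starts 14 bases apart. Slc5a3 was not analysed here, and whether the Mrps6 probe reads transcripts of both was not tested. Mrps33 was the other small-subunit gene highest in NS, at -0.63 and -0.62 against -0.92 and -0.85 in MAPC and -1.12 and -1.11 in ESC. ESC minus NS was -0.49 ± 0.05 (adjusted p = 0.00017), and its MAPC minus ESC call (0.22, adjusted p = 0.012) was lost without MAPC replicate 2 (adjusted p = 0.074), with the deposited processed intensities (adjusted p = 0.076) and with the sample channel by itself (adjusted p = 0.13). With median centring its MAPC minus NS call was lost (-0.04, adjusted p = 0.70, against -0.27) and ESC minus NS was -0.30.

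The proteins named Mrps but placed in the large subunit differed from each other in MAPC minus ESC, although a difference between genes was not tested. Mrps18a was highest in MAPC (0.97 and 0.92, against 0.45 and 0.57 in ESC and 0.26 and 0.27 in NS), with MAPC minus ESC at 0.43 ± 0.06 (adjusted p = 0.00079). Its ESC minus NS call (0.24, adjusted p = 0.015) was lost without ESC replicate 2 or either NS array (adjusted p = 0.068 to 0.076), with the deposited processed intensities (adjusted p = 0.056) and with the sample channel by itself (0.10, adjusted p = 0.59). Mrps30 was highest in ESC (0.74 and 0.79, against 0.53 and 0.49 in MAPC and 0.07 and 0.11 in NS), with MAPC minus ESC at -0.25 ± 0.05 (adjusted p = 0.0066) and ESC minus NS at 0.67 ± 0.05 (adjusted p = 2.76e-05). Its MAPC minus ESC call was lost in the sample channel alone (-0.19, adjusted p = 0.23).

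Mitoribosomal proteins that do not carry an Mrp symbol were measured for 4 of 5 listed genes and were spread widely. Dap3, a GTP-binding protein of the small-subunit head, had 0.59 and 0.67 in MAPC, 0.48 and 0.54 in ESC, and 0.30 and 0.39 in NS, and was called in MAPC minus NS (0.28 ± 0.06, adjusted p = 0.0065). Aurkaip1 was high in MAPC, at 0.42 and 0.67 against -1.35 and -1.12 in ESC and -1.57 and -1.31 in NS, a MAPC minus NS difference of 1.98 ± 0.12 (adjusted p = 5.02e-06). Chchd1 was lowest in MAPC, at -1.24 and -1.17 against -0.57 and -0.60 in ESC and -0.09 and -0.12 in NS. Ptcd3 was low in NS, at 0.06 and 0.07 against 1.12 and 1.15 in MAPC and 1.30 and 1.33 in ESC.

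Factors that assemble the mitoribosome or modify its RNA were measured for 15 of 22 listed genes. In ESC minus NS 12 were called higher and 3 were not called, with a median of 0.61, and in MAPC minus NS 8 were higher and 3 lower (median 0.24). In MAPC minus ESC 2 were higher and 9 lower (median -0.29). For comparison with this list and those below, 19.8% of all genes tested were called higher and 18.4% lower in ESC minus NS. These shares were 21.2% and 22.6% in MAPC minus NS and 16% and 22.1% in MAPC minus ESC. Fastkd2, an RNA-binding protein of mitochondrial RNA granules, was 1.15 ± 0.07 higher in ESC than in NS (adjusted p = 4.85e-06) and 0.97 ± 0.07 higher in MAPC than in NS (adjusted p = 9.28e-06). Tfb1m, which methylates the small-subunit RNA, was 1.15 ± 0.07 higher in ESC than in NS (adjusted p = 2.34e-05) and was measured on 1 MAPC array. Ngrn and Mrm1, which act on the large-subunit RNA, were lowest in MAPC relative to ESC, at -1.11 ± 0.06 (adjusted p = 2.93e-06) and -0.92 ± 0.06 (adjusted p = 6.99e-06). Noa1, a GTPase of small-subunit assembly, was highest in MAPC, by 0.39 ± 0.05 over ESC (adjusted p = 0.00076).

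Mitochondrial translation factors were measured for 8 of 13 listed genes, and 7 of them were called higher in ESC than in NS, with 1 not called (median 0.46). In MAPC minus NS 5 were higher and 1 lower, and in MAPC minus ESC 2 were higher and 3 lower. Gfm1, an elongation factor, was 0.41 ± 0.06 higher in ESC than in NS (adjusted p = 0.00084) and 0.30 ± 0.06 higher in MAPC than in NS (adjusted p = 0.0037). Lrpprc, which stabilizes mitochondrial mRNAs, was 1.00 ± 0.08 higher in ESC than in NS (adjusted p = 3.79e-05), and Mtif2, an initiation factor that brings the first tRNA, was -1.01 ± 0.05 in MAPC minus ESC (adjusted p = 3.90e-06). The aminoacyl-tRNA synthetases of mitochondria were more mixed: of 10 measured, 5 were higher and 3 lower in ESC than in NS, and 2 higher and 2 lower in MAPC than in NS. Wars2, which charges tryptophan tRNA, was higher in NS than in MAPC by 1.14 on the log2 scale (-1.14 ± 0.08 for MAPC minus NS, adjusted p = 1.20e-05). Of 5 measured genes of mitochondrial DNA transcription and replication, 4 were higher and 1 lower than in NS in each of ESC and MAPC. Tfam, which packages mitochondrial DNA, was 0.78 ± 0.07 higher in ESC than in NS (adjusted p = 5.10e-05). Polg, the replicative polymerase, was the gene lower in ESC than in NS, at -0.40 ± 0.08 (adjusted p = 0.0041).

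Transcription factors and coactivators known to act on nuclear genes of mitochondria moved both ways. Of 10 measured, 5 were called higher and 3 lower than in NS in ESC, and 5 higher and 3 lower in MAPC, while 1 was higher and 1 lower in MAPC than in ESC. Gabpa and Gabpb1 are subunits of the ETS-family factor NRF-2. Gabpa had ratios of 1.74 and 1.62 in MAPC, 1.86 and 1.74 in ESC, and 0.44 and 0.46 in NS. ESC minus NS was 1.35 ± 0.07 for Gabpa (adjusted p = 2.48e-06) and 1.68 ± 0.07 for Gabpb1 (adjusted p = 8.04e-07). Nrf1 and Yy1 exceeded NS by 0.37 ± 0.08 (adjusted p = 0.0063) and 0.62 ± 0.06 (adjusted p = 6.62e-05) in ESC. Esrra and Gabpb2 were highest in NS, with ESC minus NS at -1.02 ± 0.07 (adjusted p = 1.11e-05) and -0.76 ± 0.06 (adjusted p = 2.11e-05). The Myc family split: Mycn was 2.44 ± 0.06 higher in ESC than in NS (adjusted p = 9.33e-08) and Myc was lower, at -0.81 ± 0.13 (adjusted p = 0.0016).

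The medians of other genes of ribosomes and respiration were not ordered like the Mrp median, with a limit for the cytosolic list given below. The cytosolic ribosome list of 74 genes was picked by symbol. It thus includes Rps19bp1, named as a binding protein (0.65 in ESC minus NS). Also in it are like-named genes such as Rpl7l1, Rpl39l and Rpl22l1 (1.05, 4.69 and -0.34). Of these 74 genes, 9 were called higher and 17 lower in ESC than in NS (median -0.07). The counts were 8 and 46 in MAPC minus NS (median -0.29), and 4 and 34 in MAPC minus ESC (median -0.20). Among them, Rpl13, Rpl7a, Rplp1, Rps10, Rps2, Rps23, Rps29 and Rpsa had nearly identical values. Against NS they lay at -0.29 for MAPC, which is also the list median, and at -0.33 for ESC. Saturation of the spots of this list was not tested, nor was its effect on these counts and medians. Of 72 nuclear genes of oxidative phosphorylation, many of whose products assemble with those made on mitoribosomes, 5 were called higher and 44 lower in ESC than in NS (median -0.31). In MAPC minus NS 8 were higher and 47 lower (median -0.40), and in MAPC minus ESC 14 higher and 22 lower (median -0.04). The Mrp median thus lay above 0 against NS in both comparisons, and the oxidative phosphorylation median below 0. The difference between the lists was not tested.

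**Figure D3:**
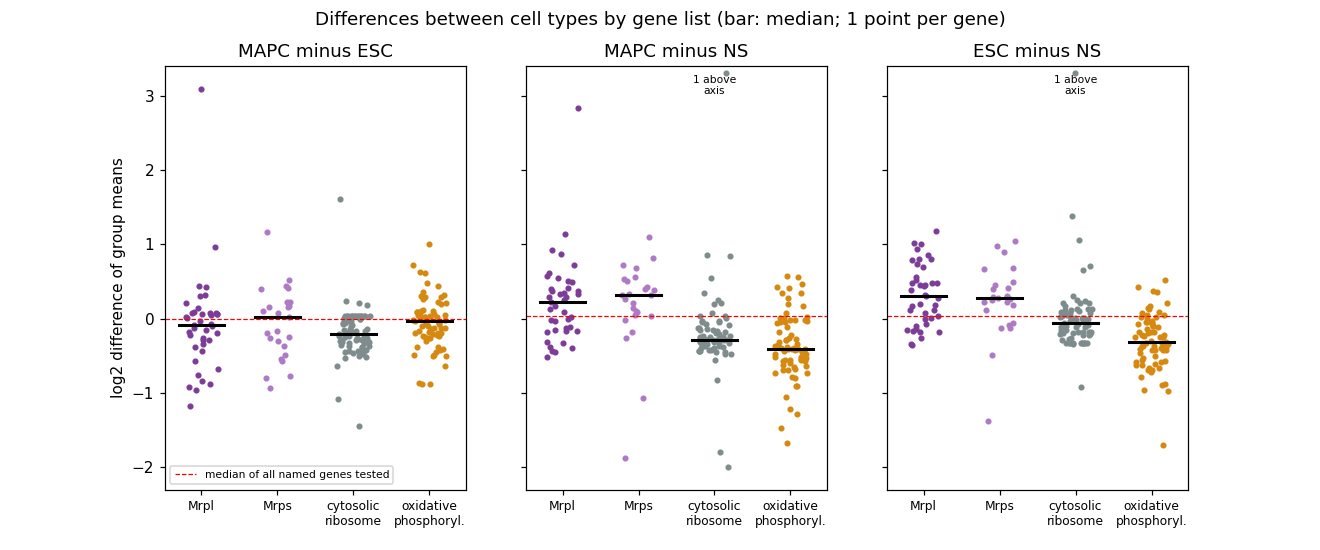
Log2 difference of group means (vertical axis) for each gene of 4 lists in the 3 comparisons, 1 point per gene, with a black bar at the list median and a dashed red line at the median of all genes tested that have a symbol. In ESC minus NS the bars lie at 0.30 and 0.27 for Mrpl and Mrps and at -0.07 and -0.31 for the cytosolic ribosome and oxidative phosphorylation; 1 cytosolic gene lies above the axis in each of the comparisons with NS.

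Over the 6 arrays, the genes outside the family most like the Mrp median by Pearson correlation, out of 11887 with a symbol and a value on every array, were Txndc9 (0.995), Pramel48 (0.995), S100a13 (0.994), Fbxw2 (0.991) and Rhcg (0.990). This is a description of 6 points in 3 groups, which all candidates share.

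Start-site sequences were compared because factors named above are known to bind short motifs there. RefSeq (GRCm38.p6) gave 300-base windows, 250 before and 50 after the start, for 58 of 66 members, 61 windows in all. Searched on either strand, the ETS motif CCGGAAG occurred for 34.5% of these Mrp genes, against 12.9% of all protein-coding genes with such windows. The Yy1 motif core AAGATGGCG occurred for 12.1%, against 2.14%. The Nrf1 motif core GCGCATGCG occurred for 6.9%, against 2.61%, and the E-box CACGTG for 5.17%, against 8.91%. No ETS match overlapped a Yy1 match. A match is a description of letters, not a site of binding.

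The 7 windows with the Yy1 core are shown because, of these motifs, its share had the largest ratio to that of other genes; 30 bases are printed with the core in capitals, and CGCCATCTT is its reverse strand:
Mrpl35 (chr6:71823742-71823771, minus strand): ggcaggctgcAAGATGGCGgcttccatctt
Mrpl37 (chr4:107066821-107066850, minus strand): tgcacgggcaAAGATGGCGgcgtccaggta
Mrpl42 (chr10:95501903-95501932, minus strand): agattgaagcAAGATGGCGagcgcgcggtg
Mrps11 (chr7:78783013-78783042, plus strand): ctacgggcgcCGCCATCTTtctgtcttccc
Mrps18a (chr17:46111005-46111034, plus strand): ggtgcgttccAAGATGGCGgccctcagggc
Mrps24 (chr11:5707652-5707681, minus strand): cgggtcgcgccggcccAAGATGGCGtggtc
Mrps27 (chr13:99344790-99344819, plus strand): ggtgcgctccAAGATGGCGgctcccatggt
In 6 of them the core begins 12 to 37 bases after the annotated start, and in Mrps11 it lies before the start. Of the 7 genes, Mrpl35, Mrpl37, Mrps11, Mrps18a and Mrps27 were called higher than NS in both ESC and MAPC. That pattern held for 43.9% of all 66 Mrp genes, 16.6% of genes with a symbol and 10.3% of all genes tested. Whether the core goes with the pattern was not tested. For Mrpl42 neither comparison with NS was called (0.17 in ESC and -0.17 in MAPC), and Mrps24 was called higher in MAPC only (1.10, against -0.06 in ESC). Among genes with a window, the core was held by 13.5% of those called higher in ESC than in NS and by 12.5% of those not called. In MAPC minus NS it was held by 17.6% of those called higher, 7.69% of those not called and 0 of 11 called lower.

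The Nrf1 core was found in genes of unlike order. A further match in Mrpl32, at -23 from its start, is left out of the windows below. Overlapping matches on the reverse strand in Mrpl9, Mrpl32 and Mrpl39 are not marked. These windows are shown with the core in capitals, and CGCATGCGC is its reverse strand:
Mrpl9 (chr3:94443298-94443327, plus strand): aggcgcagctGCGCATGCGcggggtccttc
Mrpl10 (chr11:97041437-97041466, plus strand): cccagctccaCGCATGCGCatagcggccct
Mrpl32 (chr13:14613105-14613134, minus strand): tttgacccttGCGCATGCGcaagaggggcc
Mrpl39 (chr16:84735350-84735379, minus strand): aaggagaggcGCGCATGCGcccccgcgtgg
Mrpl32 and Mrpl39 were called lowest in MAPC and highest in ESC, Mrpl9 highest in MAPC and Mrpl10 lowest in NS. The ETS motif was present in 29.7% of the 37 genes with a window that were called higher in ESC than in NS, in 3 of the 5 called lower and in 37.5% of the 16 not called. Mrpl43 and Mrpl53 each held a pair of ETS matches and had different orders. Their bases up to the start are shown, 115 for Mrpl43 and 100 for Mrpl53, with CCGGAAG or its reverse CTTCCGG in capitals:
Mrpl43 (chr19:45006443-45006557, minus strand): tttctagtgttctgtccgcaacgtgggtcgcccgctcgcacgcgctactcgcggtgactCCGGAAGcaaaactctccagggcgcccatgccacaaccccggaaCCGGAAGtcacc
Mrpl53 (chr6:83109008-83109107, plus strand): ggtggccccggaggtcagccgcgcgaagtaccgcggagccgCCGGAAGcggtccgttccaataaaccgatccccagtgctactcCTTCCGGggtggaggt
Mrpl43 was low in NS (-0.62 and -0.64, against -0.04 and -0.07 in MAPC and -0.17 and -0.14 in ESC), whereas Mrpl53 was lowest in ESC.

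Many Mrp genes share a start region with a neighbour read in the opposite direction. Within 500 bases such a neighbour was found for 19 of 58 Mrp genes (32.8%), against 7.53% of 17492 protein-coding genes in the table. Mrps11 and Mrpl46 face each other with starts 42 bases apart, and the 41 bases between them are shown as the shared stretch of a pair with the same calls:
Mrps11 and Mrpl46 (chr7:78783090-78783130, strand of Mrps11): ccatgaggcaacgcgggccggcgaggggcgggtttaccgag
Both were called higher in MAPC than in NS (0.39 ± 0.07 for Mrps11, adjusted p = 0.0020, and 0.55 ± 0.05 for Mrpl46, adjusted p = 7.97e-05) and in ESC than in NS (0.22 and 0.48). Neither was called between MAPC and ESC.

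With partners outside the family the calls were shared by some pairs and not by others. There were 10 such pairs whose genes were both tested. In ESC minus NS both were called higher in 3, opposite in 2, the Mrp gene alone in 4 and the partner alone in 1. In that comparison 63.6% of Mrp genes, 29.4% of genes with a symbol and 19.8% of all genes tested were called higher. Whether pairs shared calls more often than these shares give was not tested. Mrps12 and Sars2, the mitochondrial seryl-tRNA synthetase, were both higher in ESC than in NS (1.05 and 0.53) and in MAPC than in NS (0.51 and 0.63). Mrpl47 and Ndufb5, a subunit of respiratory complex I, were called opposite in ESC minus NS (0.73 and -0.50) and in MAPC minus NS (0.29 and -0.62). Mrps5 and the zinc-finger gene Zfp661 were called opposite in ESC minus NS (0.67 and -0.35). Mrpl40 and the histone chaperone gene Hira had 1.01 and -0.03 in ESC minus NS, and Mrpl49 and Fau, which encodes a cytosolic ribosomal protein, had 0.80 and -0.16. In MAPC minus ESC 3 pairs were called lower for both genes and 5 for the Mrp gene alone. Called lower there were 42.4% of Mrp genes, 29.3% of genes with a symbol and 22.1% of all genes tested. Differences between partners were not tested.

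**Figure D4:**
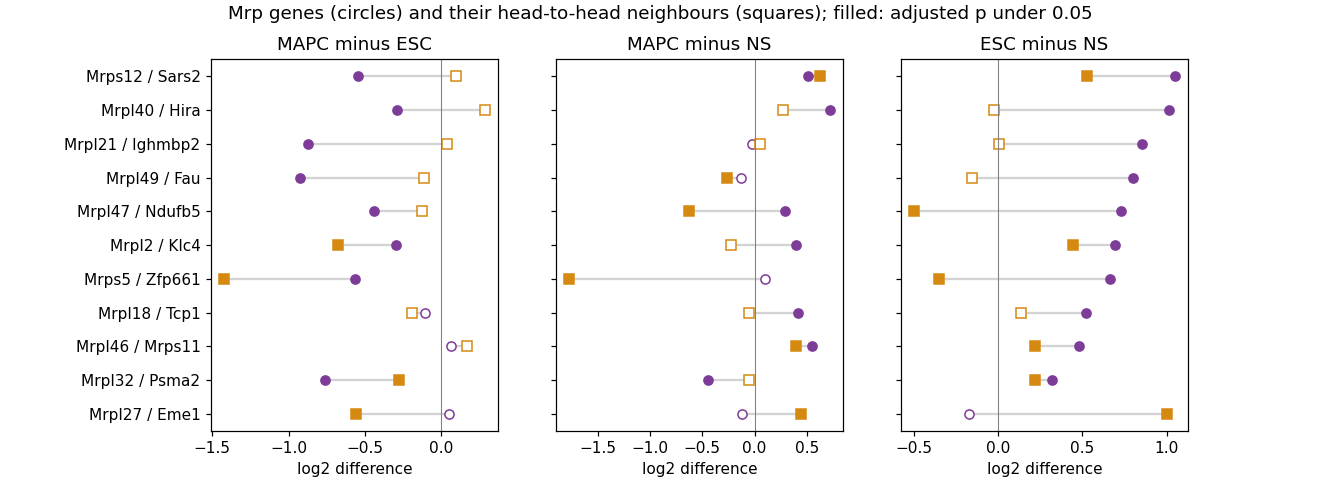
Log2 differences of 11 Mrp genes (circles) and their head-to-head neighbours (squares) in each comparison, with filled symbols for an adjusted p under 0.05; for the pair of Mrpl46 and Mrps11 the square is Mrps11. Mrpl47 and Ndufb5 lie on opposite sides of 0 in both comparisons with NS, whereas Mrps12 and Sars2 lie on the same side.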

How the data were processed

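RNA of 6 cultures was measured on 2-colour oligonucleotide arrays. The authors deposited scanner output of Agilent Feature Extraction (version A.7.5.1 in the headers). Per the file headers, each spot has, in both dyes, a mean intensity, a local background intensity and a processed intensity, along with a log10 ratio that served no test here. The deposited series matrix, in log10 units, was not used here.

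Intensities were corrected with normexp (offset 50), normalized within arrays by loess and expressed as log2 ratios in limma 3.58.1 under R 4.3.3 (Python 3.11.15 for sequences). Control and outlier spots were left out (1 spot of an Mrp gene). Against RefSeq's gene list, 15294 of 41006 probes matched by accession, 15 by symbol and 72 by older symbol, while 25625 stayed unnamed. Of 84 Mrp probes, 1 (Mrpl21) was named through an older symbol. The brightest probe stood for a gene. A gene was tested where Cy3 was well above background on each array of 1 group or more. A single limma fit of all 6 arrays (3 residual degrees of freedom, two-sided, Benjamini-Hochberg within a comparison) gave differences, moderated standard errors (SE) and adjusted p-values. It was tested on simulated data. Precision is limited by how few arrays there are.

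The replicate numbers coincide with the day of image extraction, and deviations of same-numbered arrays correlated at 0.10 to 0.21 over 35426 genes. The main fit has no block. Named by rule were the 4 highest and 4 lowest called genes of each subunit in each comparison, the gene closest to 0, and genes of known position (the stalk, Mrpl45, Mrps12, Mrps18a, Mrps30 and Dap3). Of the surrounding lists, genes were taken from the highest and lowest, and regulators by function. Motif spellings, and the windows and pairs shown, were chosen after the data were seen. Members and lists were chosen with earlier results of these data known. Alternatives tried were other background and dye corrections, the sample channel alone, probe rules, the block and leaving out arrays.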

Additional observations from a re-analysis of the deposited data

How the results depend on the processing

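With 2 arrays per group, no permutation of arrays could reach the threshold, and all tests rest on a spread pooled over the groups. No count of called Mrp genes moved by more than 1.5 times. Analysing the sample channel alone gave the fewest calls, 34 in ESC minus NS, 29 in MAPC minus ESC and 38 in MAPC minus NS, against 47, 41 and 49. Leaving out 1 array at a time gave 39 to 45, 32 to 41 and 42 to 50 calls in that order, with medians from 0.22 to 0.31, -0.12 to -0.05 and 0.20 to 0.26; a lone array was then assumed to vary like the other groups. With replicate number as a block, 47, 42 and 49 Mrp genes were called (42 higher and 5 lower, 13 and 29, 37 and 12). The block changed 2 of the calls of named genes, Mrpl38 (gained) and Mrpl52 (lost), both in ESC minus NS. The MAPC minus NS median was 0.19 without background subtraction, 0.22 in the sample channel alone and 0.20 within the image extraction day of replicate 2, an alternative added after seeing the data. The ESC minus NS median was 0.38 with median centring in place of loess. Of called values, Mrpl40 in MAPC minus ESC (0.0278) and Mrps25 in MAPC minus NS (-0.007) reversed in the sample channel alone. Mrpl52 in ESC minus NS reversed (0.005) with median centring, and none of these was called after the turn. The cause was not tested. Without background subtraction, 1667, 1551 and 2208 of all genes tested were called at 2-fold or more in that same order, against 3216, 3068 and 4091. Of 1636 values of 39 named Mrp genes over the alternatives, 1517 kept their side of the threshold, 99 lost and 17 gained a call. The other 3 are the reversals above. Values that were not called could change sign and still count as kept, as Mrps9 did in ESC minus NS (-0.13, range -0.15 to 0.34).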
